A study of Mus musculus with 6 samples.

Results

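The genes examined here are 10 mouse genes of MHC class II presentation (*Ciita*, *Cd74*, *H2-Aa*, *H2-Ab1*, *H2-Eb1*, *H2-DMa*, *H2-DMb1*, *H2-DMb2*, *H2-Oa* and *H2-Ob*). They were taken by symbol from a table of 13426 genes, and all 10 had a row. The RNA came from early LPre-B cells, a large precursor stage of the B lineage, sorted from bone marrow as B220+, CD43+ cells without surface IgM or CD2. The 3 control libraries (Ctrl) came from mice with the genotype Upf1 Flox/Flox, Mb1 +/+, and the 3 Upf1-cKO libraries from Upf1 Flox/Flox, Mb1 Cre/+ mice. Both groups therefore carry the floxed *Upf1* alleles. The Cre recombinase is driven from the B lineage gene *Mb1* (*Cd79a*) and is absent from the controls, so loss of UPF1 and presence of the Cre allele cannot be told apart. The study used age-matched mice of both sexes, co-housed with controls, without giving the sex behind each library. *Xist* lay between 2662 and 3266 normalised reads in every library, and none of the 4 Y-linked genes looked for had a row, so no library showed a male pattern.

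MHC class II molecules are pairs of an alpha and a beta chain that display peptides from endosomes to CD4+ T cells. The invariant chain, encoded by *Cd74*, fills the groove of a new pair and guides it to endosomes, where H2-DM exchanges the remaining fragment for peptides and H2-O restrains H2-DM. Transcription of these genes depends on CIITA, a coactivator that binds no DNA itself and docks on the factors RFX, CREB and NF-Y. These factors sit on conserved elements of class II promoters, among them the X box and the Y box, and the comparison asks how this gene group stands in B cell progenitors that lack an RNA decay factor.

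The promoter elements are shown first because the genes behind them moved unequally in these data. RefSeq windows of 250 bases before to 50 bases after a transcript start (GRCm38.p6) were at hand for 7 members, and *Ciita*, *Cd74* and *H2-Ab1* had no entry. The windows were searched on both strands for the Y box core ATTGG, the X box core GCAAC, and GCAAC followed on the same strand by ATTGG with 15 to 35 bases between. The letters of the cores do not overlap each other. The stretches below run 5′ to 3′ on the strand of the gene, from 40 bases before ATTGG to its end, with the matched cores in capitals.
*H2-Aa*: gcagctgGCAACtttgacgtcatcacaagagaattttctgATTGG
*H2-Eb1*: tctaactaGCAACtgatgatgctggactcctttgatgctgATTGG
*H2-Oa*: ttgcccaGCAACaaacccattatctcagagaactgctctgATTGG
*H2-Ob*: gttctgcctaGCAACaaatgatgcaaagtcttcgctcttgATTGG
*H2-DMb1*: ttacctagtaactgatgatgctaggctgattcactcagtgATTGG
*H2-DMb2*: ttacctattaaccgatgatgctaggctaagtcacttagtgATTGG

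These stretches lie at chr17:34287867-34287911 on the minus strand for *H2-Aa*, and on the plus strand at chr17:34305768-34305812 for *H2-Eb1*, chr17:34092296-34092340 for *H2-Oa*, chr17:34238808-34238852 for *H2-Ob*, chr17:34153090-34153134 for *H2-DMb1* and chr17:34145119-34145163 for *H2-DMb2*. The pair of cores was found for 4 of the 7 members, at 28 bases between in *H2-Aa* and *H2-Oa*, 27 in *H2-Eb1* and 25 in *H2-Ob*. Of all 32851 windows, 1.02% held this pair, 37.4% held ATTGG or its reverse and 35.2% held GCAAC or its reverse. *H2-DMb1* and *H2-DMb2* matched ATTGG without the exact letters GCAAC, and the 2 windows of *H2-DMa* held the cores in separate windows. The *H2-DMb1* stretch holds gtaac followed by tgatgatgct, while *H2-Eb1* holds GCAAC followed by the same letters. The search took exact letters only, so a missing match does not show that the X box is absent. A match of letters is a description and shows no binding.

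Libraries held between 9732498 and 11006834 recovered reads. The targeted gene was checked first. *Upf1* stood at 260, 203 and 259 normalised reads in Ctrl libraries 1, 2 and 3 and at 308, 283 and 299.7 in Upf1-cKO libraries 1, 2 and 3, a log2 fold change of 0.31 (SE 0.089, limma adjusted p 0.00696). Reads over all exons are summed in this row, the floxed ones included, so it is no check of the labels, and directions below are those of the libraries labelled Upf1-cKO against the Ctrl libraries. *Vpreb1*, a surrogate light chain gene that marks the sorted stage, lay between 165 and 236 normalised reads and was itself called higher (log2 fold change 0.40, limma adjusted p 0.000177). Of 15 markers of the early B lineage, all with a row, 6 rose and 4 fell (40% and 26.7%, against 27.7% and 25.0% of all genes), among them *Kit* (2.07) and *Cd79a* (-1.58). *Cd79a*, the locus into which the Cre is inserted, held 213 to 234 normalised reads in Ctrl and 71.6 to 75.2 in cKO-labelled libraries, so the groups were apart at the locus whose genotype differs between the labels. Ctrl library 1 stood apart in transcripts of neutrophil granules, and values without it are given where they matter.

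Values are normalised reads, the deposited reads plus 0.5 per 1e6 of an effective library size, and fold changes are log2 differences of value + 1, Upf1-cKO minus Ctrl. A value after ± is the SD over 3 libraries of a group, and SE is the standard error from limma. With limma and an adjusted p below 0.05 over all 13426 genes, 7 of the 10 members rose in cKO-labelled libraries, 1 fell and 2 did not pass. Over all genes tested, 27.7% were called higher and 25.0% lower. The median log2 fold change of the members was 0.66, against 0.01 for all genes. The groups did not overlap for 6 members that were higher and for 1 that was lower, and over all genes these shares were 30.9% and 28.0%. Without Ctrl library 1, the same 8 members were called. As these are bulk libraries, fewer cells with a transcript and less RNA per cell cannot be told apart.

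**Figure D1:**
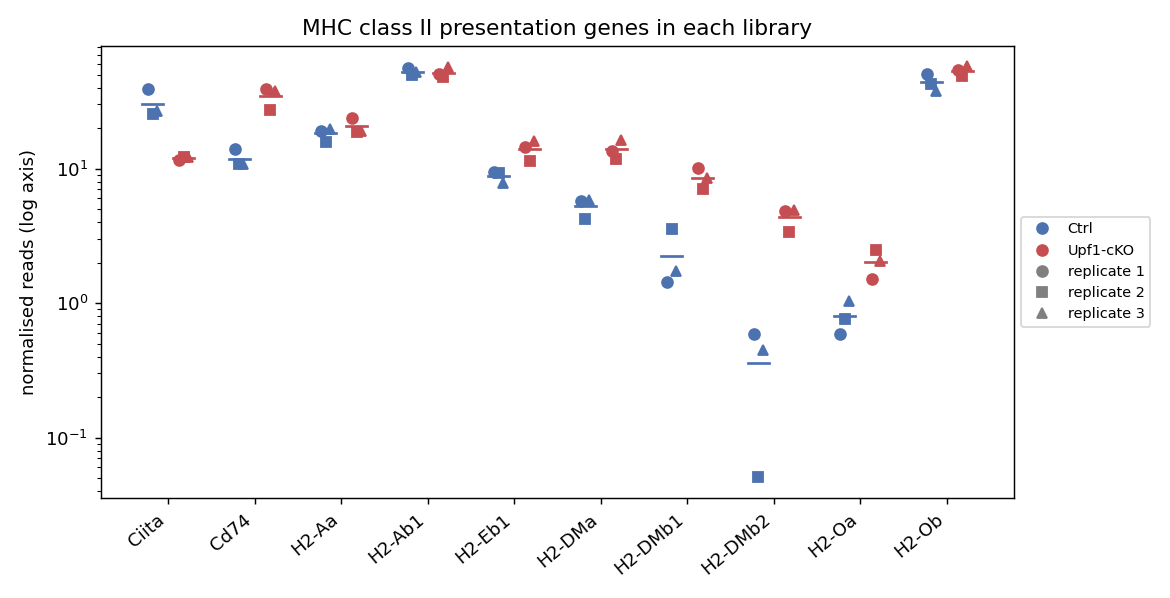
Normalised reads (log axis) of the 10 class II genes in each library, Ctrl in blue and Upf1-cKO in red, with replicates 1 to 3 as circles, squares and triangles and group means as lines. *Ciita* was lower in all 3 cKO-labelled libraries, *Cd74* and the *H2-DM* genes were higher in all 3, and *H2-Aa* and *H2-Ab1* overlapped. The lowest point, *H2-DMb2* in Ctrl library 2, stands for 0 reads.

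*Ciita*, which encodes the coactivator of the whole group, was the member that fell. Its Ctrl libraries 1, 2 and 3 held 39.1, 25.5 and 26.9 normalised reads, and Upf1-cKO libraries 1, 2 and 3 held 11.7, 12.1 and 12.2. Every cKO-labelled library lay below every Ctrl library, and the cKO-labelled values were close together. The mean went from 30.5 ± 7.51 to 11.99 ± 0.286, a log2 fold change of -1.25 (SE 0.148, limma adjusted p 1.16e-06). Reads on *Ciita* numbered 119 to 368 in a library. The log2 fold change was -1.065 without Ctrl library 1, the highest of the controls, and it remained called. *Ciita* (Entrez ID 12265, chromosome 16, 10480014 to 10531064, GRCm38) shares 329 of its 9535 exon bases with *Dexi*, which runs on the other strand and had 6.24 ± 1.71 and 6.40 ± 2.19 normalised reads in Ctrl and cKO-labelled libraries. The row does not resolve the alternative first exons of *Ciita* used in B cells, in dendritic cells and after interferon gamma.

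The factors that CIITA docks on had smaller log2 fold changes than *Ciita*. Of 8 genes for RFX, NF-Y and the CREB family, 1 rose and 2 fell (12.5% and 25.0%, against 27.7% and 25.0% of all genes), with a median log2 fold change of -0.092. *Rfx5*, the DNA-binding subunit of RFX, rose from 28.2 ± 2.25 to 39.3 ± 1.22, a log2 fold change of 0.47 (SE 0.104, limma adjusted p 0.000982). Its partners *Rfxap* and *Rfxank* had log2 fold changes of -0.014 and 0.22 and did not pass (limma adjusted p 0.948 and 0.285). *Nfya*, a subunit of NF-Y, which binds the Y box, fell by 0.21 on the log2 scale (limma adjusted p 0.0263). The other subunits *Nfyb* (0.20, limma adjusted p 0.0516) and *Nfyc* (-0.17, limma adjusted p 0.224) did not pass. *Atf1*, a relative of CREB, fell by 0.44 on the log2 scale (limma adjusted p 0.000134). Without Ctrl library 1 this list had 3 genes higher and 1 lower.

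*Cd74*, the invariant chain gene, moved opposite to *Ciita*. Ctrl libraries 1, 2 and 3 held 13.97, 10.9 and 10.8 normalised reads of *Cd74*, and Upf1-cKO libraries 1, 2 and 3 held 38.8, 27.1 and 37.6. The lowest cKO-labelled library was above the highest Ctrl library. The mean went from 11.9 ± 1.82 to 34.5 ± 6.45, a log2 fold change of 1.46 (SE 0.149, limma adjusted p 1.8e-07). *Cd74* (Entrez ID 16149, chromosome 18, 60803849 to 60812652) had between 107 and 446 reads per library. Of its 1679 exon bases, 12 are shared with the gene of a microRNA inside it.

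The chains of the classical class II molecules did not follow *Cd74* as a group. *H2-Ab1*, the beta chain of the I-A molecule, held 55.8, 49.9 and 52.5 normalised reads in Ctrl libraries and 50.98, 47.8 and 56.9 in cKO-labelled libraries. The groups overlapped, with means of 52.7 ± 2.99 and 51.9 ± 4.58. The log2 fold change was -0.025 (SE 0.0958, 95% interval -0.23 to 0.18, limma adjusted p 0.847), so a change as large as that of *Cd74* or *Ciita* lies outside its interval. The sign of this value turned when libraries were scaled to total reads (0.18) and without Ctrl library 1 (0.017) or Upf1-cKO library 2 (0.031).

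*H2-Aa*, the alpha chain of I-A, held 19.2, 15.9 and 19.7 normalised reads in Ctrl and 23.9, 18.9 and 19.1 in cKO-labelled libraries, again with overlapping groups. Its log2 fold change was 0.16 (SE 0.135, 95% interval -0.12 to 0.45, limma adjusted p 0.324), and scaling to total reads, which moved the median of all genes to 0.19, gave 0.36 (limma adjusted p 0.0391). *H2-Eb1*, the beta chain of I-E, differed from both. It held 9.51, 9.35 and 7.80 normalised reads in Ctrl and 14.4, 11.3 and 15.98 in cKO-labelled libraries, without overlap. It rose by 0.58 on the log2 scale (SE 0.161, limma adjusted p 0.00523). *H2-Ea*, the gene of the I-E alpha chain, had no row, so the rise of *H2-Eb1* describes no complete I-E molecule. *H2-Eb2*, a related beta chain gene that is no member, rose as well, from 5.48 ± 1.43 to 10.01 ± 2.52 (log2 fold change 0.76, limma adjusted p 0.00385). The coding transcripts of *H2-Eb1* and *H2-Eb2* were identical at 77.5% of 1605 aligned bases.

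**Figure D2:**
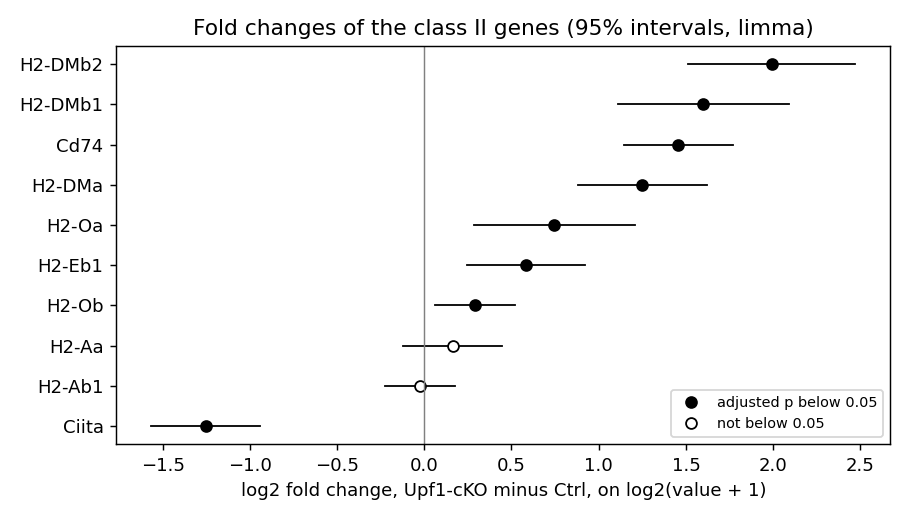
Log2 fold change of each class II gene (Upf1-cKO minus Ctrl, on the scale of log2(value + 1), 3 libraries per group) with its 95% interval from limma. Filled points passed an adjusted p of 0.05. *H2-DMb2*, *H2-DMb1*, *Cd74* and *H2-DMa* lay above 1, *Ciita* lay at -1.25, and the intervals of *H2-Aa* and *H2-Ab1* crossed 0.

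The genes of the peptide exchange factor H2-DM rose together. *H2-DMa*, the alpha chain, held 5.79, 4.19 and 5.81 normalised reads in Ctrl and 13.6, 11.9 and 16.2 in cKO-labelled libraries. All cKO-labelled libraries were above all Ctrl libraries, and the log2 fold change was 1.25 (SE 0.176, limma adjusted p 9.38e-06). This gene (Entrez ID 14998, chromosome 17, 34119693 to 34139101) overlaps *Brd2*, a bromodomain gene on the other strand, and 360 of its 3448 exon bases (10.4%) are also exon of *Brd2*. Alignment is given as unstranded and no strand setting is given for the counting, so reads of *Brd2* may count for *H2-DMa*. *Brd2* rose from 318 ± 3.10 to 982 ± 53.1 normalised reads (log2 fold change 1.62, limma adjusted p 1.72e-12). The difference of *H2-DMa* between groups, 8.64 normalised reads, was 1.30% of the difference of *Brd2*, 663 normalised reads, and the part of *Brd2* in it was not tested.

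*H2-DMb1* and *H2-DMb2* encode beta chains of H2-DM and do not overlap *Brd2*. *H2-DMb1* held 1.43, 3.59 and 1.74 normalised reads in Ctrl and 10.1, 7.08 and 8.47 in cKO-labelled libraries. Ctrl library 2 was the highest of the controls and still below every cKO-labelled library. The log2 fold change was 1.60 (SE 0.234, limma adjusted p 1.45e-05), on 13 to 35 reads per Ctrl library and 78 to 103 per cKO-labelled library.

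*H2-DMb2* was near the limit of detection in Ctrl, with 5, 0 and 4 reads in Ctrl libraries 1, 2 and 3 and 49, 37 and 58 reads in Upf1-cKO libraries 1, 2 and 3. A library with 0 reads allows up to 3, which with the added 0.5 is a value of 0.354 in Ctrl library 2 and covers counting error only. The mean went from 0.361 ± 0.277 to 4.38 ± 0.867 normalised reads. The log2 fold change was 1.99 (SE 0.228, limma adjusted p 7.79e-07). The pseudocount of 1 holds this value down, and with a pseudocount of 0.1 it was 3.53. With voom on the recovered reads, which changes the model as well, it was 4.20, the highest of the alternatives. The coding transcripts of *H2-DMb1* and *H2-DMb2* were identical at 94.6% of 1219 aligned bases, so reads can be shared or set aside between them and the single values are uncertain. Both moved in the same direction.

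H2-O, the inhibitor of H2-DM, is made of the chains *H2-Oa* and *H2-Ob*. *H2-Oa* had 5, 7 and 10 reads in Ctrl libraries 1, 2 and 3 and 15, 27 and 24 in Upf1-cKO libraries 1, 2 and 3. Its mean went from 0.795 ± 0.231 to 2.02 ± 0.485 normalised reads, a log2 fold change of 0.75 (SE 0.219, limma adjusted p 0.008). The pseudocount holds this value down as well, and with a pseudocount of 0.1 it was 1.25, beside 1.39 for *H2-DMa*. With edgeR on the recovered reads, which changes the model too, *H2-Oa* was at 1.39, beside 1.41 for *H2-DMa*. *H2-Oa* shares 321 of its 1407 exon bases with a non-coding gene on the other strand that had no row. *H2-Ob* was among the 3 members with the highest mean level per kb of exon in each group, with 50.9, 42.6 and 38.1 normalised reads in Ctrl and 54.1, 49.1 and 57.5 in cKO-labelled libraries. Its groups overlapped. The log2 fold change of 0.29 (SE 0.109, limma adjusted p 0.0327) just passed, and the call was lost without Ctrl library 2 (0.27, limma adjusted p 0.0765), Ctrl library 3 (0.20, 0.145), Upf1-cKO library 1 (0.28, 0.0912) or Upf1-cKO library 3 (0.24, 0.144), and also with median centring (0.18, 0.165), DESeq2 (0.27, 0.0679) and limma without the intensity trend (0.29, 0.105).

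Levels were compared between genes as normalised reads per kb of exon. In Ctrl libraries *H2-Ab1* was the most abundant member, at 20.5 ± 1.16 per kb (SD, n = 3), and its libraries were all above those of the next, *H2-Ob*. *H2-Ob* at 8.15 ± 1.21 and *Cd74* at 7.07 ± 1.08 overlapped. *H2-Aa* (4.81 ± 0.541), *H2-Eb1* (4.57 ± 0.486) and *Ciita* (3.20 ± 0.788) followed, and each overlapped its neighbour among these. *H2-DMa* (1.53 ± 0.269) and *H2-DMb1* (1.34 ± 0.693) overlapped and lay above *H2-Oa* (0.565 ± 0.165) and *H2-DMb2* (0.206 ± 0.159).

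In cKO-labelled libraries *Cd74* reached 20.6 ± 3.84 per kb (SD, n = 3) and overlapped *H2-Ab1* at 20.2 ± 1.79, while *Ciita* at 1.26 ± 0.0300 was the last of the 10. *Ciita* overlapped *H2-Oa* (1.44 ± 0.345), the next above it. *H2-Ob* (9.96 ± 0.789) stood above *H2-Eb1* (7.15 ± 1.22), and *H2-Eb1*, *H2-Aa* (5.43 ± 0.740), *H2-DMb1* (5.09 ± 0.900) and *H2-DMa* (4.03 ± 0.638) each overlapped the next. *H2-DMb2* (2.51 ± 0.497) lay between *H2-DMa* and *H2-Oa*. The order depends on the length used, since several genes have long alternative exons. Per kb of the longest coding transcript, *Cd74* in cKO-labelled libraries was at 24.5 ± 4.57 and *H2-Ab1* at 42.8 ± 3.78 (SD, n = 3), and 2 of the 10 members kept their place.

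Ratios of levels per kb within a library do not depend on the scaling of libraries. *Cd74* per *Ciita* was 2.03, 2.42 and 2.28 in Ctrl libraries 1, 2 and 3, and 18.9, 12.7 and 17.6 in Upf1-cKO libraries 1, 2 and 3. *Cd74* per *H2-Ab1* was 0.383, 0.333 and 0.314 in Ctrl and 1.16, 0.866 and 1.01 in cKO-labelled libraries. The summed *H2-DM* genes per summed *H2-O* genes were 0.290, 0.400 and 0.380 in Ctrl and 1.14, 0.880 and 1.03 in cKO-labelled libraries. In each of these 3 ratios the groups were apart. Their size depends on the length used, and per kb of the longest coding transcript *Cd74* per *H2-Ab1* went from 0.193 ± 0.0199 to 0.570 ± 0.0835, and *H2-DM* per *H2-O* from 0.264 ± 0.0390 to 0.727 ± 0.0793. The *H2-O* sum was mostly *H2-Ob*, at 8.15 normalised reads per kb of exon in Ctrl against 0.565 for *H2-Oa*. *H2-Oa* alone went from 0.565 to 1.44 per kb, while *H2-DMa* went from 1.53 to 4.03. The summed ratio therefore mostly follows *H2-Ob* and does not describe H2-DM against paired H2-O chains. *H2-Aa* per *H2-Ab1*, the chains of I-A, overlapped between groups, at 0.234 ± 0.0191 in Ctrl and 0.270 ± 0.0448 in cKO-labelled libraries (0.372 and 0.429 per kb of the longest coding transcript). The ratios are given without a test, as the members were chosen with results known.

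All members but *Ciita* and *Cd74* lie in a single stretch of chromosome 17, from 34092379 at the start of *H2-Oa* to 34341410 at the end of *H2-Eb2* (GRCm38), which held 14 genes of the table. From the *H2-Oa* end, log2 fold changes were 0.75 for *H2-Oa*, 1.62 for *Brd2*, 1.25 for *H2-DMa*, 1.99 for *H2-DMb2* and 1.60 for *H2-DMb1*. The genes next to them belong to class I presentation. *Tap1* (0.30) and *Tap2* (0.53), the subunits of the peptide transporter, rose, while *Psmb9* (0.22, limma adjusted p 0.0699) and *Psmb8* (-0.018, limma adjusted p 0.881), proteasome subunits named after their values were seen, did not pass. Farther along came *H2-Ob* (0.29), *H2-Ab1* (-0.025), *H2-Aa* (0.16), *H2-Eb1* (0.58) and *H2-Eb2* (0.76). The 5 genes at the *H2-Oa* end of the stretch thus had the 4 largest log2 fold changes in it. A list of 7 genes of the table in or beside this stretch held *Brd2*, *Tap1*, *Tap2*, *Psmb8*, *Psmb9*, *H2-Eb2* and *Btnl2*, the last of which lies outside the 14 genes. Of these, 4 rose and 0 fell, with a median log2 fold change of 0.30. All genes gave 27.7% and 25.0%.

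Of 17 genes for regulators known to act upstream of *Ciita*, 4 rose (23.5%) and 5 fell (29.4%), close to the 27.7% and 25.0% of all genes, and the median log2 fold change was -0.079. *Irf4*, which acts in pre-B cells and in the activation of B cells, fell from 466 ± 9.32 to 121 ± 9.18 normalised reads, a log2 fold change of -1.94 (SE 0.0759, limma adjusted p 5.97e-13). *Spi1*, which encodes PU.1, fell from 29.2 ± 2.47 to 12.6 ± 1.92 (log2 fold change -1.16, limma adjusted p 9.73e-07). *Bcl6*, a repressor, fell by 1.55 on the log2 scale (limma adjusted p 0.00202).

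In the interferon gamma pathway, which induces *Ciita* in many cell types, *Ifngr2*, a chain of the receptor, rose from 21.7 ± 4.75 to 55.6 ± 4.30 normalised reads (log2 fold change 1.34, limma adjusted p 1.14e-07). *Jak2* (0.86) and *Irf1* (0.67), named after their values were seen, rose too. *Jak1* fell by 0.39 on the log2 scale, and *Ifngr1* (0.22, limma adjusted p 0.0996) did not pass. The B lineage factors *Pax5* (-0.12) and *Ebf1* (0.033) did not pass, with limma adjusted p of 0.218 and 0.772, while *Tcf3*, which encodes E2A and is named after its value was seen, fell by 0.39 on the log2 scale (limma adjusted p 0.000406). *Prdm1*, the repressor that shuts *Ciita* off in plasma cells, was at 0.865 ± 0.250 in Ctrl and 0.576 ± 0.480 normalised reads in cKO-labelled libraries.

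**Figure D3:**
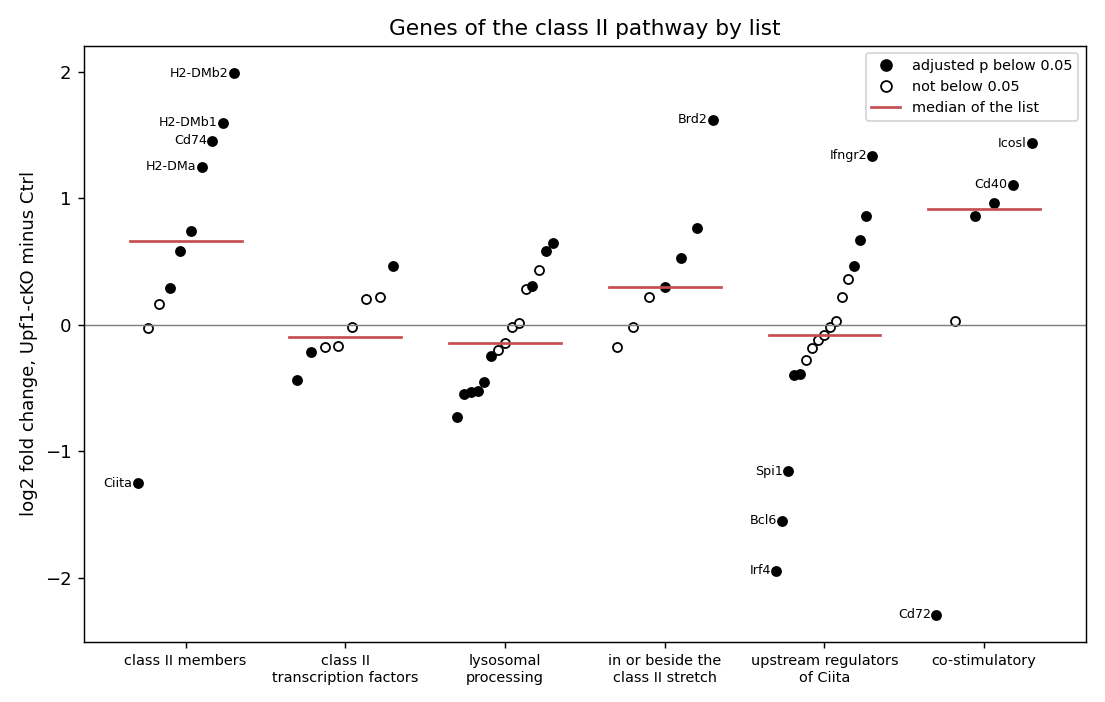
Log2 fold change (Upf1-cKO minus Ctrl, 3 libraries per group) of each gene by list, with filled points for an adjusted p below 0.05 in limma and a red line at the median of the list. *Ciita*, *Irf4*, *Bcl6*, *Spi1* and *Cd72* lay below -1, and the medians ran from -0.14 for lysosomal processing to 0.91 for the co-stimulatory genes.

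Genes that cut the invariant chain and prepare peptides came next. Of 15 genes for lysosomal processing and class II turnover, 3 rose and 6 fell (20% and 40%, against 27.7% and 25.0% of all genes), with a median log2 fold change of -0.14. The share called either way was near the 52.7% of all genes. *Ctss*, the cathepsin that trims the invariant chain in B cells and dendritic cells, held between 26.4 and 28.1 normalised reads in Ctrl and between 33.7 and 34.6 in cKO-labelled libraries, and it rose by 0.31 on the log2 scale (limma adjusted p 0.0168). *Ctsl* rose by 0.65 (limma adjusted p 0.0137) and *Ctsd* by 0.59 (limma adjusted p 3.91e-05). *Lgmn*, which encodes asparagine endopeptidase, fell from 28.3 ± 0.901 to 16.8 ± 2.46 (log2 fold change -0.73, limma adjusted p 9.8e-05). *Cst3*, an inhibitor of cathepsins, fell by 0.55 (limma adjusted p 0.00149). *Sppl2a*, the protease that clears the last fragment of the invariant chain, fell by 0.25 (limma adjusted p 0.0271). *Ifi30*, the thiol reductase GILT (-0.20), and *Marchf1*, a ligase that removes class II from the surface (0.44), did not pass, with limma adjusted p of 0.328 and 0.097. With quantile normalization, 1 gene of this list was higher, and the same count was found without Upf1-cKO library 1.

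Genes of co-stimulation, which accompanies presentation, were low apart from *Cd72* and *Cd1d1*. Of 8 genes listed, 6 had a row, of which 4 rose and 1 fell (66.7% and 16.7%, against 27.7% and 25.0% of all genes), with a median log2 fold change of 0.91. *Icosl* rose from 0.906 ± 0.659 to 3.95 ± 0.426 normalised reads (log2 fold change 1.43, limma adjusted p 8.27e-05), and *Cd40* from 0.357 ± 0.266 to 2.06 ± 1.32 (log2 fold change 1.11, limma adjusted p 0.00211). *Tnfsf4* had 1, 0 and 0 reads in Ctrl libraries and 15, 13 and 8 in cKO-labelled libraries. These 3 genes rest on few reads, and 1 gene of the list remained higher when genes with a mean log2 value under 1 were left out. In Ctrl libraries 1, 2 and 3 *Cd40* had 2, 6 and 1 reads. Genes this low in Ctrl may have a row, or pass such a minimum, only through the cKO-labelled libraries. Genes kept in that way can only be called higher, so these shares and the median are a description and lend no support to a rise. *Cd72*, an inhibitory receptor of B cells, went from 308 ± 56.3 to 61.7 ± 5.20, a log2 fold change of -2.29 (SE 0.11, limma adjusted p 1.31e-10).

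Class II genes are also transcribed by dendritic cells, macrophages and later B cells, so markers of these cells were summed in each library. Of 10 dendritic cell markers, 5 had a row. Their sum lay between 5.71 and 8.45 normalised reads in Ctrl and between 33.9 and 37.8 in cKO-labelled libraries, and most of this difference was *Flt3*, a receptor also found on early progenitors. Of the 5 markers, 2 rose (40%, against 27.7% of all genes) and 0 fell. Those that rose were *Flt3* (log2 fold change 3.36) and *Ccr9*, a chemokine receptor, which went from 1.54 ± 0.937 to 3.25 ± 0.356 (log2 fold change 0.80, limma adjusted p 0.00954). Without *Flt3* the sums were 3.48 to 6.06 in Ctrl and 5.06 to 6.83 in cKO-labelled libraries, which overlapped. *Xcr1*, *Clec9a*, *Clec10a*, *Cd209a* and *Batf3* had no row, and *Zbtb46*, a defining factor of these cells, had 2 to 9 reads in every library. Of 12 macrophage and monocyte markers, 5 had a row, with *Csf1r* and *Adgre1* overlapping between groups and *C1qa*, *C1qb* and *C1qc* without a row. Their sums ran from 36.7 to 64.3 in Ctrl and from 60.9 to 82.7 in cKO-labelled libraries, and *Lyz2* alone was called (20% of the 5, against 27.7% of all genes higher), with a log2 fold change of 0.76 (limma adjusted p 0.0203). Of 8 markers of T and NK cells only *Klrb1c* had a row, and it rose from 0.595 ± 0.229 to 3.20 ± 0.580 (log2 fold change 1.40, limma adjusted p 2.62e-05).

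Neutrophil markers differed most between libraries. All 8 had a row, and their sums were 114, 18.1 and 14.1 normalised reads in Ctrl libraries 1, 2 and 3 and 443, 340 and 314 in Upf1-cKO libraries 1, 2 and 3. Of these markers, 4 were called higher (50%, against 27.7% of all genes) and 0 lower. Within the controls, Ctrl library 1 had 6.30 times the neutrophil sum of Ctrl library 2. The class II genes in Ctrl library 1 stood at 1.02 to 1.53 times their level in Ctrl library 2 for 7 members, at 0.400 times for *H2-DMb1* and at 0.771 times for *H2-Oa*, and *H2-DMb2* had 5 reads against 0. The part of carried-over cells in the class II values was not tested. Of 10 markers of later B cells, 2 rose and 4 fell (20% and 40%, against 27.7% and 25.0% of all genes), and their sums were lower in cKO-labelled libraries (81.8 to 84.3) than in Ctrl libraries (95.4 to 108). *Il2ra*, which encodes CD25, fell by 2.42 on the log2 scale (limma adjusted p 2.96e-09), whereas *Ms4a1*, which encodes CD20, had 3.24 ± 0.437 and 2.93 ± 1.01 normalised reads in Ctrl and cKO-labelled libraries (limma adjusted p 0.627). *Cr2*, which encodes the complement receptor CD21, rose by 0.81 (limma adjusted p 0.00102).

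**Figure D4:**
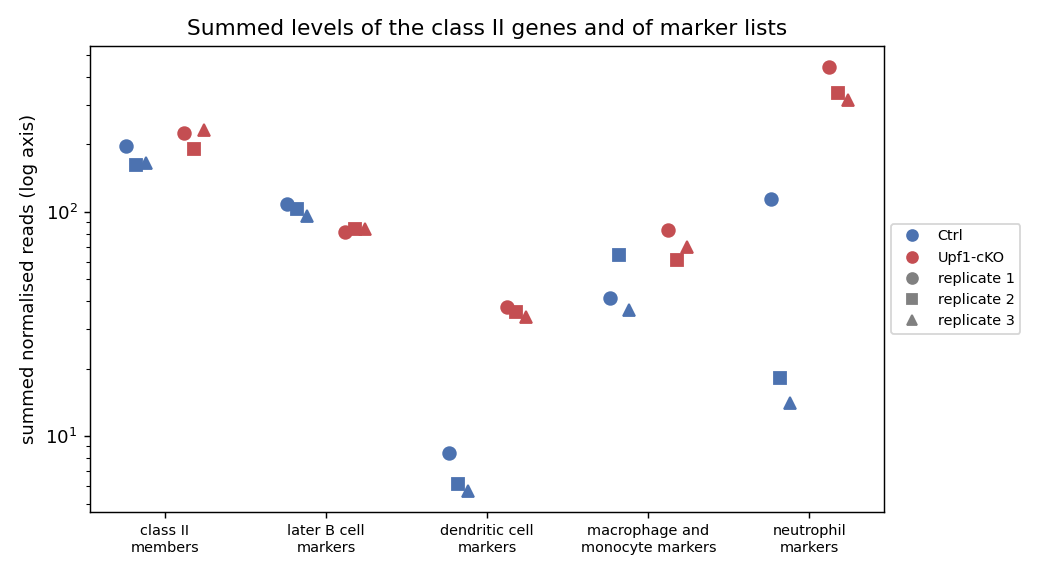
Summed normalised reads (log axis) of the 10 class II genes and of marker lists for other cells in each library, Ctrl in blue and Upf1-cKO in red, with replicates as circles, squares and triangles. The neutrophil sums span 14.1 to 443 and place Ctrl library 1 between the other controls and the cKO-labelled libraries, and *Flt3* makes up most of the dendritic cell sums in cKO-labelled libraries.

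The genes whose log2 values followed *H2-Ab1*, the member with the highest mean level per kb of exon over all libraries, most closely over the 6 libraries were *Itpkb*, *Rec8* and *Med26*, with Pearson correlations of 0.969, 0.96 and 0.957. They are the highest of 13416 genes compared over 6 libraries that share a scaling, and are given as a description.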

How the data were processed

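The deposited table gives a signal on a linear scale for each Entrez gene ID in each library. Per the labels, reads were trimmed with cutadapt 4.0, aligned with HISAT2, counted with featureCounts 2.0.1 and analysed with limma 3.48.0, and the study's methods give mm10, ribosomal RNA depletion, a directional kit and alignment as single-end and unstranded, with no strand setting for the counting. Each value of the deposited signal is an odd multiple of its column's minimum, as reads plus 0.5 per 1e6 of an effective library size gives, and whole reads were recovered for 100% of values within 0.05 of a read. RefSeq GRCm38.p6 named 13008 IDs, and lengths came from GENCODE M21.

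limma 3.58.1 (R 4.3.3) was fitted to log2(value + 1) of all 13426 genes with group as the only term, eBayes with an intensity trend and robust estimation, and Benjamini-Hochberg adjustment. The script was tested on simulated data. SEs are moderated. The SD is over 3 libraries, which the study describes as biological replicates. No pair of libraries within a group agreed within counting noise (chi-square over degrees of freedom, 4.53 to 23.4). edgeR 4.0.16, DESeq2 1.42.0 and voom on recovered reads were alternatives. The members, lists and tests were chosen with earlier results of these data known. Named genes were all members, *Upf1*, the RFX and NF-Y genes, up to 4 called genes per list by absolute log2 fold change, and the 3 genes most like the member of highest mean level per kb. Other genes, including markers, were named after their values were seen.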

Additional observations from a re-analysis of the deposited data

How the results depend on the processing

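The calls of *Ciita*, *Cd74*, *H2-Eb1*, *H2-DMa*, *H2-DMb1*, *H2-DMb2* and *H2-Oa* held, in the same direction, under every alternative run. *H2-DMb2* and *H2-Oa* passed the minimum mean log2 value of 1 only through the cKO-labelled libraries, where they were higher. That run therefore lends no support to these calls. *Cd74* ran from 1.35 to 1.65 and *Ciita* from -1.37 to -1.06 on the log2 scale. *H2-Ob* lost its call without the trend (0.29), with DESeq2 (0.27) and with median centring (0.18), *H2-Aa* passed when scaled to total reads (0.36), and *H2-Ab1* changed sign there (0.18). The cause was not tested. Leaving out each library in turn gave 0.20 to 0.40 for *H2-Ob*, -0.091 to 0.031 for *H2-Ab1*, 1 to 3 transcription factors higher and 1 to 3 lower, 1 to 3 lysosomal genes higher, and 6 to 10 members at their place in the per-kb order in Ctrl.

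Among the class II transcription factors, 2 were higher with edgeR, the minimum mean of 1, quantile normalization and scaling to total reads, and 1 was lower without the trend, with quantile normalization and with scaling to total reads. Quantile normalization left 1 lysosomal gene higher, scaling to total reads 3 upstream regulators lower, and the minimum mean of 1 left 1 co-stimulatory gene higher, since the others were not tested there. Length from the longest coding transcript, chosen after seeing the data, left 2 members at their place in cKO-labelled libraries.

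The deviations of same-numbered libraries correlated at 0.126, -0.0632 and -0.0792 over 9202 genes, which gave no sign of pairing by replicate number. Deviations within so small a group are linked, so these values cannot show that pairing is absent. The column headers carry adjoining numbers for same-numbered libraries, without saying what the numbers mean. With the replicate number as a block, 7 members were higher and 1 lower, and all genes gave 3668 higher and 3321 lower, against 3725 and 3351 without it. Not every library correlated best with its own number. Few reads limit *H2-DMb2* and *H2-Oa* most.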
